A study of Mus musculus with 2 samples.

Results

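Ghrl and Ghsr, the gene for the hormone ghrelin and the gene for its receptor, were examined across the cells of 2 mouse pancreatic islet libraries. They are 2 of the 31053 genes in the deposited matrices and were chosen for their measured pattern over cell classes, so the levels by class are a description and carry no test. The islets came from C57BL/6J mice aged 13 weeks. One library was labelled HFD, read here as high-fat diet, and the other CD, which the labels do not expand. Each diet had 1 library, and the labels used here do not say how many mice were behind it. The assay was droplet sequencing of 3′ transcript ends with the 10x Genomics v3 kit, in which each captured molecule is counted once through its unique molecular identifier (UMI).

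Ghrelin is a peptide hormone made mainly by endocrine cells of the stomach, and the islet holds a small population of ghrelin cells that is larger before birth than in the adult. The peptide binds its receptor once the enzyme encoded by Mboat4 has attached a fatty acid to it. The receptor couples to G proteins, and in the mouse islet it is known from the somatostatin-producing delta cells.

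In the mm10 assembly Ghrl (ENSMUSG00000064177) lies on the minus strand at chr6:113716119-113719880, and 2 unnamed gene models on the opposite strand overlap it. Ghsr (ENSMUSG00000051136) lies on the plus strand at chr3:27371351-27378010, with 1 annotated transcript of 3 exons and no overlapping gene.

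Barcodes with at least 1500 UMIs, at least 500 genes and at most 15% of UMIs from mitochondrially encoded genes were kept as cells, 12062 in the HFD library and 9667 in the CD library. Beta cells were those with at least 30% of UMIs from Ins1 and Ins2, alpha cells those with at least 10% from Gcg, delta cells those with at least 3% from Sst, and PP cells those with at least 20% from Ppy. The HFD library gave 7433 beta, 2005 alpha, 662 delta, 535 PP and 1284 remaining cells, and the CD library 6515 beta, 1272 alpha, 570 delta, 328 PP and 838 remaining cells. A further 143 HFD and 144 CD cells met more than 1 rule. All 5 delta markers and all 7 beta markers were highest in their own class in both libraries. Alpha markers were highest there for 6 of 6 in HFD and 5 of 6 in CD, and PP markers for 2 of 4 in HFD and 3 of 4 in CD. Delta cells were shallow, with a median of 4781 UMIs in HFD and 6442 in CD, and a median mitochondrial share of 5.40% in HFD and 3.24% in CD. Both libraries contained 26 of the same cell barcodes, 0.216% of the HFD cells and 0.269% of the CD cells. With 1 library per diet no difference has a replicate check, and every interval given is an exact 95% interval that covers counting error only.

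Ghrl was almost wholly a matter of 2 cells of the CD library. The whole HFD library held 56 Ghrl UMIs among 271527648, and the CD library 24116 among 265836346. A pair of CD cells, both in the remaining class, held 22910 of the 24116, and 98.0% of the Ghrl in its kept cells. Cells with at least 1% of their UMIs from Ghrl numbered 0 of 12062 in HFD, which allows a share of up to 0.0249%, and 2 of 9667 in CD, a share of 0.0207% (0.00251 to 0.0747). The intervals of the shares overlap. The counts were the same at 0.1% and at 3%.

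The first of these ghrelin-rich CD cells had 32130 UMIs over 4476 genes, with 14384 from Ghrl, or 44.8%. The second had 18775 UMIs over 3236 genes, with 8526 from Ghrl, or 45.4%. Ghrl was the highest gene in each of them. Mitochondrial UMIs made up 2.74% and 3.59%. The next highest Ghrl counts in any CD cell were 15, in a beta cell, and 8, in a delta cell, followed by 2 cells with 3 UMIs, 14 with 2 and 413 with 1. In HFD, 1 cell had 2 Ghrl UMIs and 6 cells had 1. No cell of either library lay between 15 and 8526.

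**Figure D1:**
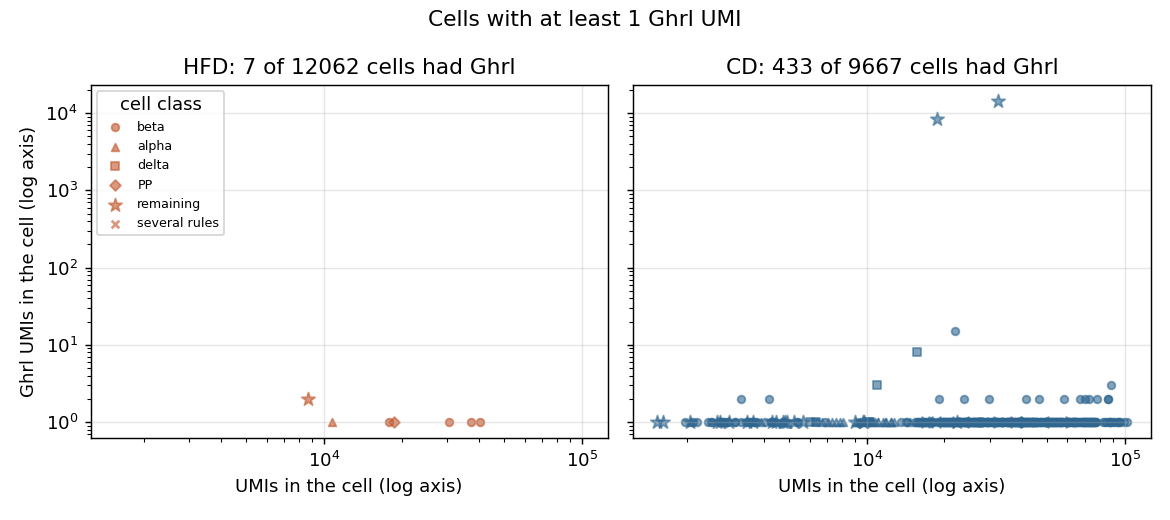
Ghrl UMIs of each cell with at least 1, against the total UMIs of that cell, on log axes, with HFD on the left and CD on the right and symbols for the cell class. In HFD 7 of 12062 cells are drawn and none exceeds 2 Ghrl UMIs; in CD 433 of 9667 cells are drawn, and the 2 at 14384 and 8526 stand apart from all others.

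The ghrelin-rich CD cells differed from each other in the other islet hormones. The first held 961 Sst UMIs, 2.99% of its total and just under the delta rule, with 525 Pyy and 284 Ppy UMIs. The second held 3 Sst, 6 Pyy and 15 Ppy UMIs. Ins2 was low in both, at 215 and 149 UMIs, or 0.669% and 0.794%. Chga, a protein of hormone granules, had 224 and 208 UMIs. Ttr, which encodes the thyroxine carrier transthyretin, had 469 and 308 UMIs, and Rbp4, which encodes a retinol carrier, had 149 and 260 UMIs. Mboat4, the acylating enzyme, had 1 UMI in the first cell and 0 in the second. Isl1, a transcription factor of endocrine cells, had 12 and 5 UMIs, and Ghsr had 1 and 0. The lists for macrophages, mesenchymal cells, lymphocytes, red cells and endocrine cells of the gut were at 0 in both cells for all their markers. Endothelial markers gave 1 UMI in each cell, acinar markers 5 and 0, and ductal markers 13 and 4. A doublet score of 0.170, at percentile 94.6 of its library, placed both cells among the barcodes removed under that alternative, which took 748 of the 9667 CD cells. The part of doublets in these cells was not tested.

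Genes that accompanied Ghrl were ranked against the other remaining cells of both libraries. The 10 first were Serpina1a, Serpina1b, Ceacam10, Cpb2, Rbp4, Gc, Acsl1, Sst, Maged2 and Ramp1. The place of Sst came from the first cell alone, which held 961 Sst UMIs. The second held 3, a level below that of the other remaining cells. Because much of that ranking sets an endocrine cell against other cell types, a comparison with the highest of the 4 endocrine classes was added after the data had been seen. It held 185 genes with at least 20 UMIs in the pair of cells, of which 10 were at least 3-fold higher in the pair than in any endocrine class with both libraries summed.

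Serpina1a and Serpina1b, which encode forms of the protease inhibitor alpha-1-antitrypsin, led that ranking. Serpina1a had 36 and 47 UMIs in the 2 cells, a level of 1630 CPM (UMIs scaled to the same total in each class or cell), against 0.655 CPM in alpha cells, the highest class, a ratio of 2489 (1498 to 4340). Serpina1b had 23 and 30 UMIs, a ratio of 2013 (1118 to 3845) over alpha cells. The Serpina1 copies are nearly identical and the counting could divide reads among them, so the split between these genes is uncertain. Ceacam10, of the carcinoembryonic antigen family, had 33 and 21 UMIs and a ratio of 1649 (780 to 4012) over PP cells. Over the 3 genes together the pair held 92 and 98 UMIs, while the highest other cell held 3 UMIs in HFD and 6 UMIs in CD.

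The next genes were present in other endocrine cells too. Acsl1, which activates long-chain fatty acids, had 7 and 22 UMIs, a ratio of 38.1 (24.4 to 57.7) over delta cells. Cpb2, a carboxypeptidase known from plasma, had 29 and 6 UMIs and a ratio of 34.0 (22.8 to 49.3) over delta cells. Gc, the vitamin D binding protein, had 9 and 30 UMIs and a ratio of 5.80 (4.10 to 7.99) over delta cells. Ramp1, which partners with calcitonin-type receptors, had 8 and 27 UMIs and a ratio of 3.05 (2.11 to 4.25) over delta cells. The second cell gave that ratio, with Ramp1 at 1438 CPM. In the first it stood at 249 CPM, near the 226 CPM of delta cells and below the 265 CPM of CD delta cells. Rbp4 stood at 8035 CPM in the pair and 3722 CPM in delta cells, a ratio of 2.16 (1.95 to 2.38). It was at 4637 CPM in the first cell and 13848 CPM in the second. Each of these ratios rests on 2 cells of 1 library, and its interval does not cover variation among cells.

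**Figure D2:**
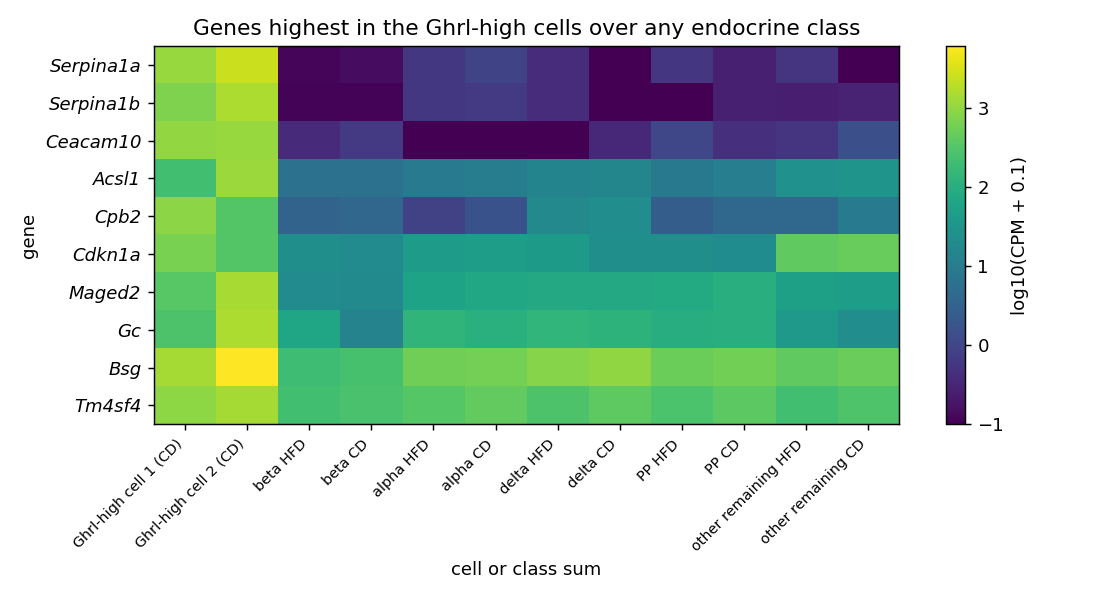
Level of the 10 genes leading the added comparison, as log10(CPM + 0.1) by colour, in the ghrelin-rich CD cells (first 2 columns) and in the class sums of HFD and CD. Serpina1a, Serpina1b and Ceacam10 are near the bottom of the scale in each class and high in both cells, while Bsg and Tm4sf4 are present throughout.

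Outside the pair, Ghrl was low in HFD cells and at a similar low level across the classes of CD cells. In HFD it stood at 0.0201 CPM in beta cells (4 UMIs), 0.0626 CPM in alpha cells (1 UMI), 0.155 CPM in PP cells (1 UMI) and 0.305 CPM in remaining cells (2 UMIs). HFD delta cells held 0 Ghrl UMIs, which allows up to 0.897 CPM. In CD it stood at 1.89 CPM in beta cells (1.71 to 2.09, 385 UMIs), 2.38 in alpha cells (1.62 to 3.38), 3.56 in delta cells (1.99 to 5.88), 2.00 in PP cells (1.04 to 3.50) and 3.78 in the remaining cells without the pair (2.28 to 5.91). With the pair, the CD remaining class stood at 4521 CPM. The CD intervals outside the pair overlap except that the remaining cells lie above the beta cells. Over all kept cells without the pair, HFD held 0.0343 CPM and CD 2.00 CPM, a log2 ratio of -5.87 (-7.09 to -4.88). A cell of 8 and a cell of 3 UMIs gave 11 of the 15 Ghrl UMIs of CD delta cells.

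Cells of types that should lack the hormone also carried Ghrl UMIs. Among remaining cells with endothelial, macrophage, mesenchymal, Schwann or lymphocyte markers, 1 of 941 in HFD (0.106%) and 16 of 626 in CD (2.56%, 1.47 to 4.12) had a Ghrl UMI, at a median depth of 3682 UMIs in HFD and 3835 in CD. For CD delta cells the share was 1.05%, 6 of 570, at a median of 6442 UMIs, and for CD beta cells 5.45%, 355 of 6515, at a median of 26671 UMIs. After thinning each CD cell to 3000 UMIs, which left out 308 beta, 61 alpha, 23 delta and 3 PP cells, the shares were 0.773% in beta, 0.661% in alpha, 0.731% in delta and 0.615% in PP cells. In the CD remaining class, the pair included, it was 2.12%, 12 of 565, with 273 cells left out. Whether the low Ghrl counts of CD endocrine cells came from free RNA was not tested.

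In CD, the barcodes outside the cell range held Ghrl at higher levels than the cells other than the pair did; in HFD this rested on the shared barcodes described next. Barcodes of 10 to 100 UMIs had 23.0 CPM in HFD (37 UMIs) and 33.8 CPM in CD (50 UMIs). Barcodes of 100 to 500 UMIs had 0.599 CPM in HFD (10 UMIs) and 22.9 CPM in CD (396 UMIs, 20.7 to 25.3). Barcodes above that band but under the cell limit of 1500 UMIs had 0 Ghrl UMIs in HFD and 80 UMIs in CD, or 13.6 CPM. In CD, the beta cell level was 8.27% of that in the barcodes of 100 to 500 UMIs, the alpha cell level 10.4%, the PP cell level 8.74% and the delta cell level 15.5%. Genes that mark other cell types varied widely on that measure. In CD beta cells Cpb1 stood at 1.31%, Prss2 at 1.35%, Cela1 at 2.20%, Ppy at 13.0%, Gcg at 14.6% and Sst at 28.6%. In CD delta cells Cpb1 stood at 2.82%, Prss2 at 3.26%, Ins1 at 7.87%, Ins2 at 9.28%, Gcg at 27.2% and Cela1 at 77.6%. Ppy stood at 222% there, above the low barcodes, so it is not read as foreign to delta cells.

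Most of the HFD Ghrl came from barcodes that both libraries share. The HFD library had 3 barcodes with at least 10 Ghrl UMIs, all of which also had at least 10 in CD, and they held 47 of its 56 Ghrl UMIs. The first carried 10 Ghrl of 373 UMIs in HFD and is the barcode of the first ghrelin-rich CD cell. The second carried 11 of 20 UMIs in HFD and is that of the second ghrelin-rich CD cell. The third carried 26 of 48 UMIs in HFD (54.2%) and 15 of 28 UMIs in CD (53.6%). Without barcodes holding at least 10 Ghrl UMIs in the other library, the level in barcodes of 10 to 100 UMIs was 0 CPM in HFD and 23.7 CPM in CD. The other 9 HFD Ghrl UMIs lay in 8 barcodes. How these barcodes came to be shared was not tested.

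**Figure D3:**
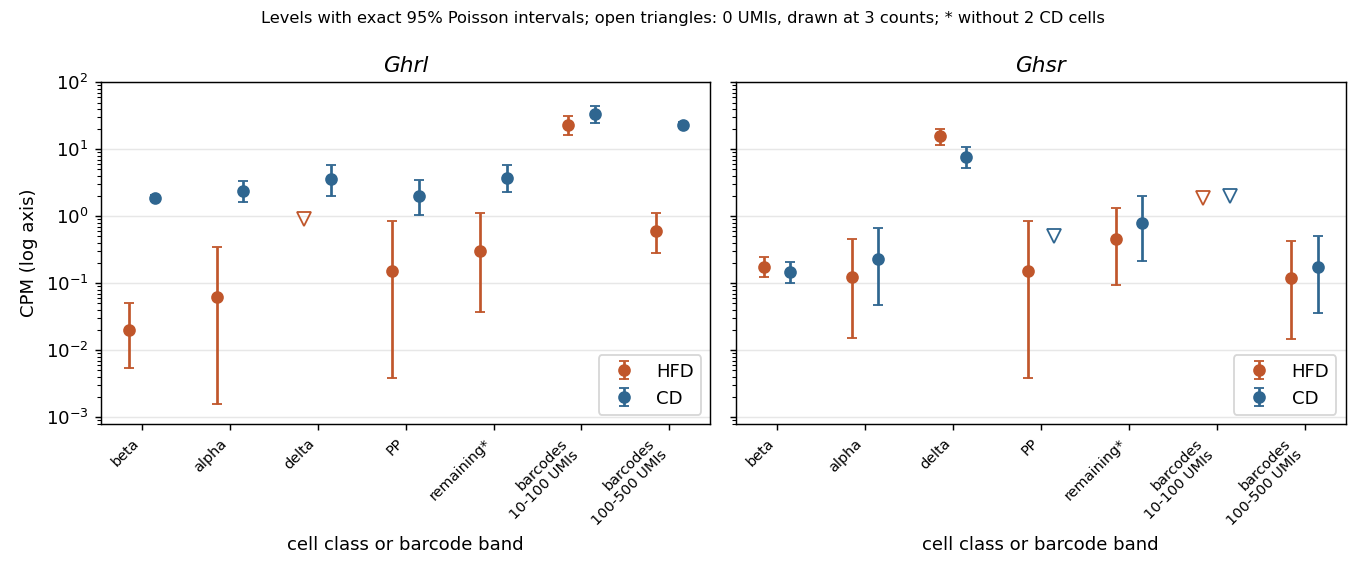
Levels of Ghrl (left) and Ghsr (right) in CPM, on a log axis, by cell class and in barcodes of 10 to 100 and 100 to 500 UMIs, with exact 95% Poisson intervals, HFD left of CD in each place. Open triangles mark 0 UMIs and are drawn at 3 counts; the remaining class is drawn without the ghrelin-rich pair. CD Ghrl lies between 1.89 and 3.78 in every class, and Ghsr is highest in delta cells at 15.5 in HFD and 7.60 in CD.

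Ghsr had another pattern: it was spread over many cells and concentrated in the delta class of both libraries. The library totals were 118 Ghsr UMIs in HFD and 79 in CD. HFD delta cells held 52 UMIs, a level of 15.5 CPM (11.6 to 20.4), and CD delta cells 32 UMIs, a level of 7.60 CPM (5.20 to 10.7). No delta cell had more than 2 Ghsr UMIs in HFD or more than 1 in CD. Delta cells thus gave 53.6% of the Ghsr UMIs of kept cells in HFD and 44.4% in CD, while being 5.49% of the HFD cells and 5.90% of the CD cells.

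Ghsr in the other endocrine classes was low. Beta cells held 35 UMIs in HFD (0.176 CPM, 0.122 to 0.245) and 30 UMIs in CD (0.148 CPM, 0.0996 to 0.211). Alpha cells held 2 UMIs in HFD (0.125 CPM) and 3 in CD (0.230 CPM). PP cells held 1 UMI in HFD (0.155 CPM) and 0 in CD, which allows up to 0.501 CPM. Remaining cells held 3 UMIs in HFD (0.458 CPM) and 5 in CD (0.986 CPM). The intervals of these classes overlap one another except that CD beta cells lay below CD remaining cells, so no further order is read from them.

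The delta level was 88.4 times the beta level in HFD (56.5 to 140) and 51.5 times in CD (30.3 to 87.7). It was 124 times the alpha level in HFD (32.7 to 1052) and 33.0 times in CD (10.3 to 168). Over PP cells it was 100.2 times higher in HFD (17.2 to 4034) and at least 15.2-fold higher in CD, taking 3 counts over the CD class as the floor. The delta level was 34.0 times that of remaining cells in HFD (11.0 to 170) and 7.71 times in CD (2.98 to 25.3). Barcodes of 10 to 100 UMIs held 0 Ghsr UMIs in both libraries, which allows 1.86 CPM in HFD and 2.03 CPM in CD. Barcodes of 100 to 500 UMIs held 2 Ghsr UMIs in HFD and 3 in CD. The delta levels thus lie above what the low barcodes carry.

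A Ghsr UMI was seen in 50 of 662 HFD delta cells (7.55%, 5.66 to 9.84) and in 32 of 570 CD delta cells (5.61%, 3.87 to 7.83). A set of remaining cells had endothelial, macrophage, mesenchymal, Schwann or lymphocyte markers. In that set the share was 1 of 941 in HFD (0.106%) and 0 of 626 in CD, which allows up to 0.479%. Cells with ductal markers had a Ghsr UMI in 1 of 98 in HFD (1.02%, 0.0258 to 5.55). In CD it was 3 of 53 (5.66%, 1.18 to 15.7), near the CD delta share but at unlike depth. The median was 18175 UMIs in this CD ductal group and 6442 in CD delta cells. By level the group stood at 2.78 CPM, against 7.60 CPM in CD delta cells. It included the first ghrelin-rich cell. Of the 5 CD remaining cells with a Ghsr UMI, 4 had at least 1% of their UMIs from Sst. The ductal markers Krt18 and Krt8 were also present in CD delta cells, at 231 and 171 CPM. At 3000 UMIs per cell the delta shares were 28 of 596 in HFD (4.70%, 3.14 to 6.72) and 14 of 547 in CD (2.56%, 1.41 to 4.26), with 66 HFD and 23 CD delta cells left out as too shallow. Beta cells at that depth had a share of 0.0812% in HFD and 0.0644% in CD. Most delta cells had no Ghsr UMI at this depth, which does not show that they lack the transcript.

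Between the diets, the delta level of Ghsr was higher in HFD, with a ratio of 2.05 (1.29 to 3.28), or 1.03 on the log2 scale (0.37 to 1.72). In beta cells the ratio was 1.19 (0.711 to 2.01), or 0.25 on the log2 scale, which was 1.07 (-0.16 to 2.40) with called doublets removed and -0.63 with each cell weighted alike, a weighting added after the data were seen. Depth and the mitochondrial share of delta cells moved with the diet, as given above. Among delta cells of at least 3000 and under 6000 UMIs, Ghsr stood at 18.5 CPM in 459 HFD cells and 9.90 CPM in 175 CD cells, a ratio of 1.87 (0.890 to 4.38). Among those of 6000 or more UMIs it stood at 11.1 CPM in 137 HFD cells and 6.76 CPM in 372 CD cells, a ratio of 1.64 (0.739 to 3.46). Delta cells under 3000 UMIs held 1 Ghsr UMI in each library. Within each range of depth, a split chosen after the data were seen, the interval thus included 1. Of 10337 genes with enough UMIs in delta cells, 7.87% were at least 1.5-fold higher in HFD and 6.09% at least 1.5-fold lower. That limit is lower than the Ghsr ratio of 2.05, and the share of genes reaching 2.05 is not given here.

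The Ghsr level was higher in cells with more Sst. In cells with under 0.1% of UMIs from Sst it stood at 0.0327 CPM in HFD (7 UMIs) and 0.00474 CPM in CD (1 UMI). From 0.1% to 1% it was 1.38 CPM in HFD and 1.48 CPM in CD, and from 1% to 3% it was 3.48 CPM in HFD and 2.73 CPM in CD. From 3% to 10% it was 9.63 CPM in HFD (6.17 to 14.3) and 5.33 CPM in CD (3.25 to 8.23). At 10% or more it was 17.9 CPM in HFD (12.3 to 25.3) and 7.53 CPM in CD (4.12 to 12.6). The level was higher at each step in both libraries. Above 0.1% the intervals of neighbouring steps overlap except between the 1% to 3% and 3% to 10% steps in HFD. From 1% Sst upward the share of cells with a Ghsr UMI was 6.50%, 5.76% and 9.52% in HFD. In CD it was 7.33%, 5.36% and 5.19%, so it did not rise with Sst. Median depth at 1% to 3% was 24478 UMIs in HFD and 28252 in CD, against 4994.5 and 6442 at 10% or more. Doublets were called for 41.5% of HFD and 35.9% of CD cells at 1% to 3%, against 1.19% and 0.741% at 10% or more. The part of depth and doublets was not tested.

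**Figure D4:**
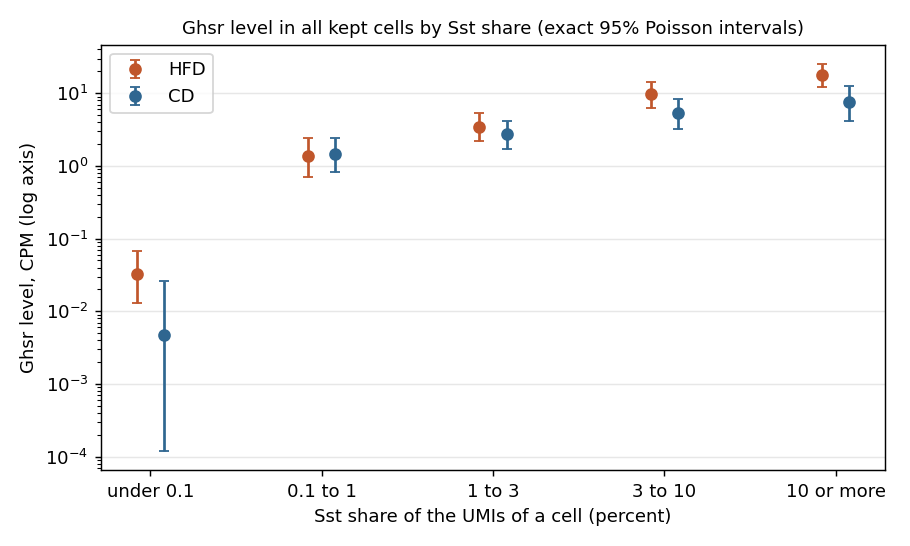
Ghsr level in CPM, on a log axis, in all kept cells grouped by the percent of their UMIs from Sst, with exact 95% Poisson intervals, HFD left of CD. The level runs from 0.0327 to 17.9 in HFD and from 0.00474 to 7.53 in CD.

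Of the cells outside the delta class that had a Ghsr UMI, 22 of 39 in HFD and 22 of 36 in CD had at least 1% of their UMIs from Sst, against 2.74% of 11361 HFD and 3.58% of 9061 CD cells without Ghsr. Among beta cells with Ghsr, 16 of 29 in HFD and 15 of 26 in CD reached that Sst level. Among beta cells without Ghsr the share was 2.43% of 7404 in HFD and 2.45% of 6489 in CD. The 1% limit was chosen after the data were seen. Beta cells with Ghsr were deeper, with a median of 35604 UMIs in HFD and 38332 in CD, against 24026.5 in HFD and 26630 in CD for those without. Doublet scores called 15 of the 29 HFD cells and 20 of the 26 CD cells, against 876 of 7404 HFD and 573 of 6489 CD beta cells without Ghsr. The part of doublets was not tested. In beta cells with under 0.1% Sst there were 5 Ghsr UMIs in 6998 HFD cells and 0 in 5790 CD cells.

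Near the limit of the delta rule the numbers were small. Cells with 3% to 4% Sst, just inside, numbered 29 in HFD with 1 Ghsr UMI and 19 in CD with 2. Cells with 2% to 3% Sst, just outside, numbered 24 in HFD with 0 Ghsr UMIs and 17 in CD with 2, the first ghrelin-rich CD cell among them.

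The genes whose level over the 10 class sums was most like that of Ghsr were, like it, highest in delta cells. They were picked for that likeness, so sharing the pattern of Ghsr over classes and diets is no separate result. The measure was Pearson's correlation of log2(CPM + 1) over 5 classes in 2 libraries, among 13580 genes with at least 50 UMIs, and the sums of a library share its preparation. The highest was Neurog3, a transcription factor of endocrine progenitors, at 0.99. It stood at 63.4 CPM in HFD delta cells and 40.8 CPM in CD delta cells, and at 0.935 CPM in HFD beta cells and 0.851 CPM in CD beta cells. The others in order were Upf3b, Sidt1, Cacna2d2, Syt6, Kcnj13, Kcnmb4, Bco1, Cbln4 and Bmp3, the last at 0.98.

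Several of these genes encode parts of ion channels or secreted proteins. Cacna2d2, a subunit of voltage-gated calcium channels, stood at 43.0 CPM in HFD delta cells and 31.1 CPM in CD delta cells, and at no more than 2.37 CPM in any other class. Kcnj13, an inward rectifier potassium channel, stood at 6.88 CPM in HFD and 4.51 CPM in CD delta cells. Kcnmb4, a subunit of calcium-activated potassium channels, stood at 5.98 CPM in HFD and 2.61 CPM in CD delta cells. Bmp3, a secreted factor of the bone morphogenetic protein family, stood at 62.2 CPM in HFD and 40.1 CPM in CD delta cells. Upf3b, a factor of nonsense-mediated RNA decay, was present in each class and stood at 170 CPM in HFD and 128 CPM in CD delta cells. Sst itself came at place 49, with a correlation of 0.96. Of the other delta markers, Ptprz1 came at place 36, Hhex at 712, Rbp4 at 1197 and Casr at 2830, the last at 0.69.

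The other genes of the ghrelin pathway were counted by the same rule in all genes. Over all genes tested, 4.31% were at least 3-fold higher in delta cells than in beta, alpha and PP cells in both libraries, and 0.641% at least 3-fold lower. Of 43 pathway genes in 6 lists, Ghrl and Ghsr left out, 30 had enough UMIs, and 1 of them, Neurog3, was at least 3-fold higher, with 0 at least 3-fold lower, a share near that of all genes.

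Among genes that make the active hormone, the acylating enzyme was scarce. Mboat4 stood at 0.0703 CPM in HFD beta cells and 0.0295 CPM in CD beta cells, and at 0 in HFD delta and 0.475 CPM (2 UMIs) in CD delta cells. Pcsk1, a prohormone convertase that cuts proghrelin, stood at 133 CPM in HFD and 101 CPM in CD beta cells, against 34.7 CPM in HFD and 32.5 CPM in CD delta cells. Pcsk2, a related convertase, was highest in alpha cells at 3238 CPM in HFD and 2856 CPM in CD. Bche, which encodes the esterase butyrylcholinesterase, able to remove the acyl group, was at 7.32 CPM in HFD and 7.30 CPM in CD remaining cells and under 1 CPM in the endocrine classes.

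Lypla1, an acyl-protein thioesterase also reported to deacylate ghrelin, stood at 25.1 CPM in HFD delta cells and 12.3 CPM in CD delta cells, a ratio of 2.03 (1.42 to 2.93). Leap2, which encodes an antagonist of the receptor, had 0 UMIs outside beta cells and at most 0.0246 CPM in them.

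Partners and relatives of the receptor were scarce. Mrap2, an accessory protein of the receptor, stood at 0.241 CPM in HFD beta cells and 0.679 CPM in CD beta cells, and at 0 in HFD and 0.237 CPM (1 UMI) in CD delta cells. Drd1 and Drd2, the dopamine receptors reported to pair with it, had 0 UMIs in delta cells of both libraries, and so had Sstr5, Htr2c and Mc3r. In the receptor family, Gpr39 was seen in each class, at 3.59 CPM in HFD and 2.61 CPM in CD delta cells. Ntsr1, Ntsr2, Nmur1, Nmur2 and Trhr were at or near 0 throughout.

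The signalling genes downstream were broadly present. Gnaq, the G protein subunit to which the receptor couples, stood at 115 CPM in HFD and 82.9 CPM in CD delta cells, a ratio of 1.38 (1.19 to 1.61). Plcb4, a phospholipase C, stood at 64.3 CPM in HFD and 61.0 CPM in CD delta cells, against 12.2 CPM in HFD and 13.6 CPM in CD beta cells. Itpr1, a calcium release channel, stood at 274 CPM in HFD and 182 CPM in CD delta cells, with an interval of the ratio from 1.37 to 1.66.

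Between the diets, 3 of 22 of these genes with enough UMIs in delta cells, Lypla1, Itpr1 and Neurog3, were at least 1.5-fold higher in HFD and 0 at least 1.5-fold lower, where of all genes 7.87% were higher and 6.09% lower. The median log2 ratio over the 22 genes was 0.12 in delta cells, against -0.02 over all genes tested. In beta cells 0 of 29 were higher, against 9.18% of all genes, and 3, Mrap2, Gnai1 and Itpr3, were lower, against 7.46%. In alpha cells 0 of 25 were higher, against 7.14% of all genes, and 0 lower, against 4.65%. In PP cells 0 of 21 were higher, against 4.94%, and 0 lower, against 7.75%. In remaining cells 0 of 27 were higher, against 6.3%, and 1, Plcb3, was lower, against 5.31%.

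**Figure D5:**
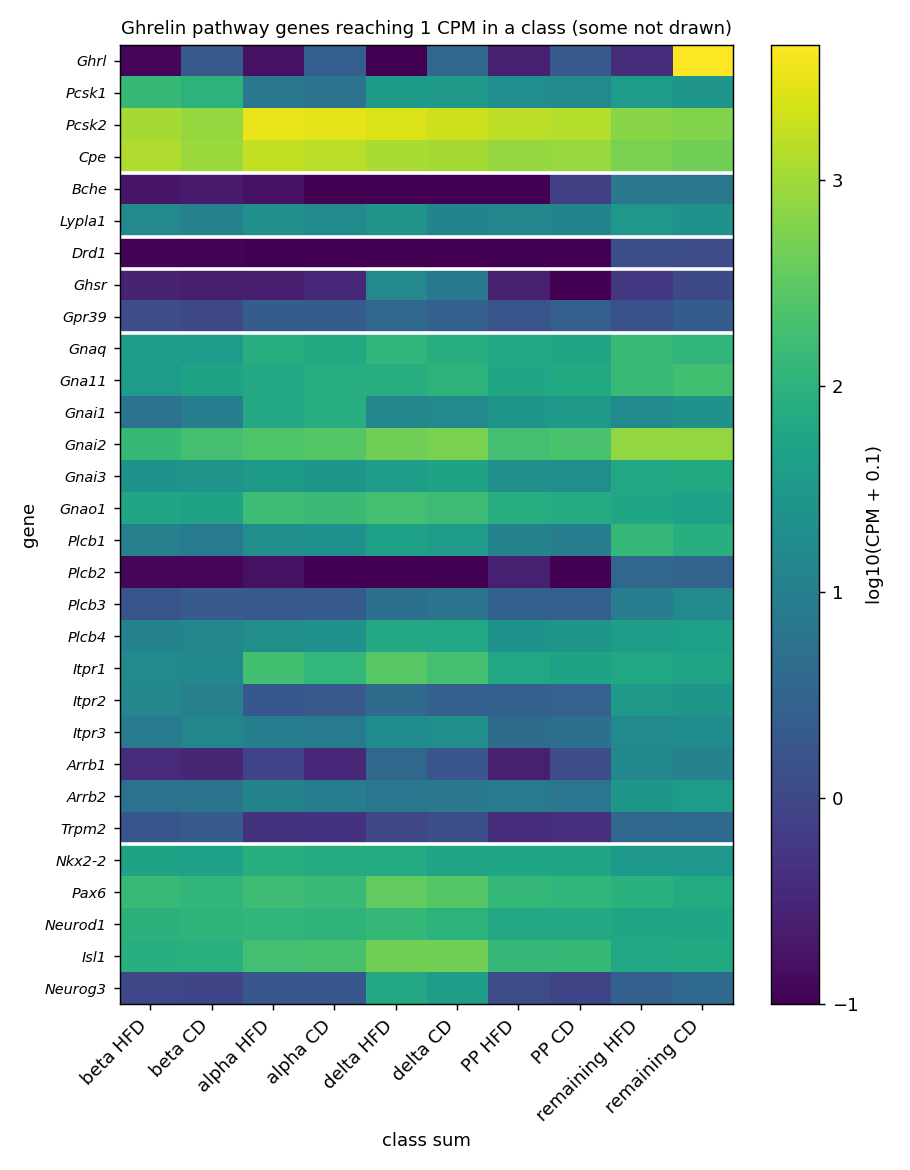
Level of ghrelin pathway genes that reach 1 CPM in a class (some are not drawn), as log10(CPM + 0.1) by colour, in the class sums of HFD and CD, with white lines between the lists. The single bright Ghrl field at 4521 CPM is the CD remaining class with the ghrelin-rich pair, and Ghsr and Neurog3 are brightest in the delta columns.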

How the data were processed

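The deposited matrices hold UMI counts per gene and barcode, without normalization by the authors. Cell Ranger 6.0.1 and mm10 are named, per the submitters' processing notes; the software version in the matrix files is 3.0.2, per the file headers. No annotation release was stated, and positions came from GENCODE for the same build. All barcodes are listed, so cells were chosen here. Counts were summed per class and library and divided by the class total (CPM). Levels carry exact Poisson intervals, shares Clopper-Pearson intervals and ratios conditional binomial intervals, all at 95%, and a count of 0 is given with the limit of 3 counts. UMIs collapse PCR copies; the intervals do not cover variation between cells, mice or libraries. No test between diets was made. A gene counted as higher between classes at 3-fold in both libraries and between diets at 1.5-fold, with at least 20 UMIs. Doublets were kept, and their removal with scrublet (scanpy 1.11.5, highest scores removed in proportion to the number of cells) was an alternative. Named genes were Ghrl, Ghsr, pathway list members, class hormones and marker genes, the 10 genes most like Ghsr and the 10 leading in the ghrelin-rich cells over the other cells of their class; the added comparison with endocrine classes named others after their values were seen. The genes, the lists and the class rules were chosen with earlier results of these data known. TMM factors came from edgeR 4.0.16 on the deposited counts. The fold rules and intervals were tested on simulated data. Some genes of the lists enter the counts but are not reported here by name.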

Additional observations from a re-analysis of the deposited data

Results flagged for a closer look

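Ghsr was also found in barcodes that had at least 1500 UMIs but failed the cell filters, which the class comparisons do not use. These 2474 HFD barcodes held 13 Ghsr UMIs, or 1.89 CPM (1.01 to 3.24), and the 954 CD barcodes held 1, or 0.427 CPM (0.0108 to 2.38). The HFD level lies above the 0.120 CPM of HFD barcodes of 100 to 500 UMIs. Of the 13 HFD barcodes with Ghsr, 12 had at least 1% of their UMIs from Sst and 10 had at least 3%, and their median mitochondrial share was 18.3%, above the 15% limit. With a limit of 25%, chosen after the data were seen, the delta level was 16.3 CPM in HFD and 7.74 CPM in CD.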

How the results depend on the processing

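Of 260 values of 41 results under alternatives, 216 stayed within the counting interval of the reported value (for gene counts, within 1.5 times), 43 moved outside it and 1 reversed. Ghrl in CD remaining cells, 4521 CPM, was 5166 with at least 3000 UMIs, 4660 with at most 10% mitochondrial UMIs, 4346 with at most 25%, 5184 with hormone and mitochondrial genes left out of the total, 7856 with free RNA subtracted, 3.94 with doublet scores removed and 3.78 without cells of 3 or more Ghrl UMIs. The last 2 of these leave out the ghrelin-rich cells. The HFD value, 0.305 CPM, was 0 with doublet scores removed and 0 with free RNA subtracted. Ghsr in HFD delta cells was 20.8 CPM with hormone and mitochondrial genes left out of the total. The log2 ratio of Ghsr in delta cells was -1.72 among cells under 3000 UMIs, with 1 UMI in each library, and elsewhere lay between 0.71 and 1.28. The share of delta cells with Ghsr, 4.70% in HFD and 2.56% in CD when thinned to 3000 UMIs, was 3.02% in HFD thinned to 1500, 4.84% in CD thinned to 6000, and 7.55% in HFD and 5.61% in CD unthinned; a share depends on depth by construction. Genes 3-fold higher in delta cells numbered 679, and 439 with at least 100 UMIs. Genes 1.5-fold higher in HFD delta cells numbered 814, with 2962 at 1 UMI and 158 at 100 UMIs, and those lower numbered 630, with 2596 and 196. The cause of the other moves was not tested. The 25% limit, the depth ranges and the removal of cells with 3 or more Ghrl UMIs were chosen after the data were seen. No paired analysis was possible because each diet has 1 library.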
